A study of Mus musculus with 7 samples.

Results

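The EGR and NR4A immediate early factors are transcription factors whose genes are switched on within minutes of a stimulus, without prior protein synthesis. The 7 genes described here were chosen by name: the zinc finger genes Egr1, Egr2 and Egr3, their corepressor gene Nab2, and the orphan nuclear receptor genes Nr4a1, Nr4a2 and Nr4a3. They are 7 of the 28666 genes in the expression table, and all 7 passed the filter on low counts. EGR proteins bind GC-rich elements through zinc fingers, and they induce NAB2, which binds EGR1 and EGR2 and dampens their activity. NR4A proteins have no known physiological ligand in the classical sense, so their activity follows the amount of protein made. In myeloid cells EGR factors are known from macrophage differentiation, NR4A1 from the survival of non-classical monocytes and NR4A3 from the migration of dendritic cells towards CCR7 ligands.

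Libraries were made from 3 samples of immature and 4 samples of mature bone marrow derived dendritic cells (BMDCs). The cells were grown for 7 days from the marrow of female C57BL/6 mice aged 6 to 8 weeks in 20 ng/mL GM-CSF and 10 ng/mL IL-4, which yields a mixed culture of dendritic and macrophage-like cells. They then shared a Transwell with cells of the mouse colon carcinoma line MC38. The study's text places the sort after 24 h of DON, a glutamine antagonist, and its design section and discussion also name DON. In describing its co-cultures the study pairs DON with added glutamine. A figure legend of the study, however, names both DMSO and DON at 5 µM. The sample labels give neither agent, so no sample can be assigned to one, and an effect of DON cannot be read from these libraries. The only difference between the groups in the labels is the developmental stage, immature or mature. Since the groups were sorted on maturity, a difference between them describes 2 sorted fractions of a culture and not a time course. The text on this sort names no markers, although flow cytometry legends elsewhere in the study define mature dendritic cells as CD80+CD86+. The study states in general that its data come from independent biological experiments, but no source ties single libraries to cultures. If some samples share a culture, the p-values measure in part technical spread.

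Markers of mature dendritic cells went with the labels. Of 10 such genes, 9 were higher in mature cells, among them Ccr7 (log2 fold change 3.62), Fscn1 (4.12) and Cd83 (3.04), and Ccl17 did not pass the test. Cd80 and Cd86 were among the 9, and where a sort used them their rise is no finding. Among 8 genes of dendritic cell identity, Flt3, Zbtb46 and Dpp4 were higher. The other 5 changed by less than 1 on the log2 scale: -0.41 for Itgax, 0.06 for H2-Ab1, 0.41 for Cd74, 0.53 for H2-Aa and 0.68 for Ciita. Of 12 macrophage markers, 11 were lower in mature cells, and their summed level was 2683 to 2793 CPM (counts scaled to library size) in immature against 517 to 623 CPM in mature libraries. No macrophage marker was at 0 in all libraries. The macrophage markers moved in the same direction as the EGR genes, and their part in the results below was not tested. In such bulk RNA, fewer cells of a type and less RNA per cell cannot be told apart. Libraries held 54846746 to 67973086 counts. All 10 heart muscle markers were called higher, from a sum of 5.03 to 5.68 CPM in immature libraries to 718, 849 and 742 CPM in mature replicates 2, 3 and 4, against 26.9 CPM in mature replicate 1, so each member is also given for mature replicate 1 alone. Markers of neutrophils, T cells, B cells and NK cells together summed to 5.31 to 11.2 CPM per library.

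The promoter letters of 4 members are shown because they differ in a feature that all 3 NR4A genes share. TGACG is the core of the element bound by CREB, a factor through which cAMP and calcium signals act on immediate early genes. It was searched on both strands, where it reads CGTCA, in the 250 bases before each start in the RefSeq promoter table (GRCm38.p6). The table holds 27025 genes. Of the 7 members, 5 are described here. Egr3 had no window, and Egr1 was left out because sequence of its chromosome is not printed here. Nr4a1, Nr4a2 and Nr4a3 each held 4 matches, a number reached by 45 of 32851 windows (0.137%). G and C made up 74.4%, 80.0% and 63.6% of their 250 bases, and the 0.137% was not adjusted for this content. It was 61.6% in the Egr2 window printed below and 72.8% in Nab2. Egr2, which has several starts, held 2 matches in the window printed below and none before its 2 starts further upstream. At least 2 matches were held by 3.9% of windows and at least 1 by 17.8%, and Nab2 held none. That window of Egr2 also held 1 CArG box, the element bound by serum response factor, which 1.47% of windows held. In the stretches below, which lie outside annotated exons and are written 5′ to 3′ on the strand of the gene, capitals mark the TGACG core on either strand and the CArG box.
Nr4a1, chr15:101266596-101266845, plus strand: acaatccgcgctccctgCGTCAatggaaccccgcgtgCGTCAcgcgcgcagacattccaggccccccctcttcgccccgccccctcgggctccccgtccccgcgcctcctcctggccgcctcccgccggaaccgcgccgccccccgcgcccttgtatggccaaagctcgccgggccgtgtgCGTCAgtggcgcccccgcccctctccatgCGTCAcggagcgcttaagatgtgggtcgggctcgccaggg
Nr4a2, chr2:57124004-57124253, minus strand: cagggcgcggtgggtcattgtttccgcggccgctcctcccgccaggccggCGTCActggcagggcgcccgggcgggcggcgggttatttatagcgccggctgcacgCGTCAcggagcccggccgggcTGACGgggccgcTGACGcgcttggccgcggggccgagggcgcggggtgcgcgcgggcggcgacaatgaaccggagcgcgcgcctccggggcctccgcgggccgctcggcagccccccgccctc
Nr4a3, chr4:48045055-48045152, plus strand: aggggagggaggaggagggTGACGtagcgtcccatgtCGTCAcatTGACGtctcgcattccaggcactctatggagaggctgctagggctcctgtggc
Egr2, chr10:67537619-67537868, plus strand: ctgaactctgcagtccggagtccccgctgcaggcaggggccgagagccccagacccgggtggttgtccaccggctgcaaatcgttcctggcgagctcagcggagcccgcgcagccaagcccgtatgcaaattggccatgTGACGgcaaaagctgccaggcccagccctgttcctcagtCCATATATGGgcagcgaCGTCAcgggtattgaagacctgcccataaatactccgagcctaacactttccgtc
The Nr4a3 stretch ends before its first annotated exon and holds 3 of its 4 matches. The EGR element GCGNGGGCG was found once each in Nr4a1 and Nr4a2, against 4.7% of windows, and AAAGGTCA, the element bound by NR4A monomers, was in none of the 5 genes, against 1.34% of windows. A match is a description of letters and not a measured binding site. All 3 NR4A promoters held the 4 matches. Between the groups Nr4a1 was lower and Nr4a2 and Nr4a3 were higher in mature cells. The part of the matches in these changes was not tested.

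All 7 genes passed both criteria, an adjusted p under 0.05 and a change of at least 1 on the log2 scale, in edgeR's quasi-likelihood test adjusted over 17461 genes. Egr1, Egr2, Egr3, Nab2 and Nr4a1 were lower in mature cells, while Nr4a2 and Nr4a3 were higher. Over all genes tested, 23.1% passed these criteria, 13.2% higher and 9.95% lower. On the adjusted p alone the count was again 7, against 46.1% of all genes tested. For each of the 7 genes, every mature library lay on one side of every immature library, as it did for 52.1% of all genes tested. The median log2 fold change over all genes was 0.055. Fold changes are given as mature over immature.

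Egr1 (ENSMUSG00000038418, chr18:34859823-34864984, plus strand), the founding member, is a target of ERK signalling. Its level was 172, 132 and 141 CPM in immature cells and 11.3, 12.2, 15.9 and 15.8 CPM in mature cells. Even the highest mature library lay far below the lowest immature one. The means were 148 ± 21.1 (SD, n = 3) and 13.8 ± 2.40 CPM (SD, n = 4), a 10.7-fold lower level. In this fit it was the largest of the 7 changes, with a log2 fold change of -3.43 (SE 0.16, edgeR adjusted p = 8e-07).

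Egr2 (ENSMUSG00000037868, chr10:67535475-67542188, plus strand) is needed for myelination and acts in macrophages and lymphocytes. It stood at 207, 174 and 207 CPM in immature cells and at 60.3, 63.5, 60.3 and 71.5 CPM in mature cells. It was 3.06-fold lower in mature cells, with means of 196 ± 19.2 (SD, n = 3) and 63.9 ± 5.26 CPM (SD, n = 4). The log2 fold change was -1.62 (SE 0.099, edgeR adjusted p = 3.3e-06). Its level in every immature and every mature library was above that of Egr1 in the same library, also per length, as described below.

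Egr3 (ENSMUSG00000033730, chr14:70077203-70082614, plus strand), known from muscle spindles and T cell tolerance, was scarce. It stood at 7.41, 5.25 and 6.80 CPM in immature libraries, from 292 to 439 counts, and at 1.21, 1.01, 1.06 and 0.72 CPM in mature libraries, from 45 to 80 counts. It was 6.48-fold lower in mature cells, and the fitted log2 value was -2.69 (SE 0.23, edgeR adjusted p = 2.4e-05). The count of 45 to 80 per library makes this the least deeply counted of the EGR genes in mature cells.

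Nab2 (ENSMUSG00000025402, chr10:127660918-127668568, minus strand) encodes the corepressor that EGR proteins induce. Its levels were 50.8, 50.3 and 48.2 CPM in immature and 24, 19.5, 20.2 and 20.1 CPM in mature libraries. The spread was narrow in both groups, with means of 49.8 ± 1.39 (SD, n = 3) and 21 ± 2.07 CPM (SD, n = 4). The log2 fold change of -1.25 (SE 0.097, edgeR adjusted p = 1.3e-05) was the smallest of the 7 in size. Nab2 overlaps Stat6, Nemp1 and Gm16229 (at most 23 counts in a library) on the opposite strand, and the strand setting of the counting is not given in the sources used here, so reads of overlapping genes may not be told apart. Stat6 had 277 ± 11.4 (SD, n = 3) and 272 ± 17.8 CPM (SD, n = 4), which differed by -0.03 on the log2 scale (SE 0.081, edgeR adjusted p = 0.81). Nemp1 had a log2 fold change of -0.86 (SE 0.16, edgeR adjusted p = 0.00245).

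Nr4a1 (ENSMUSG00000023034, chr15:101254269-101274795, plus strand), also called Nur77, was low in both groups. It measured 4.70, 4.35 and 3.19 CPM in immature and 1.33, 1.31, 2.00 and 1.1 CPM in mature cells. The highest mature value was that of replicate 3. The level was 2.84-fold lower in mature cells, or -1.50 on the log2 scale (SE 0.26, edgeR adjusted p = 0.00157), and rested on 206 to 276 counts in immature and 69 to 106 counts in mature libraries.

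Nr4a2 (ENSMUSG00000026826, chr2:57106830-57124003, minus strand), also called Nurr1 and known for dopamine neurons, moved the other way. It measured 1.82, 1.98 and 0.93 CPM in immature and 8.25, 9.39, 6.13 and 8.44 CPM in mature cells. Mature replicate 3 was the lowest of its group, yet well above the highest immature library. The mean level was 5.11-fold higher in mature cells, or 2.35 on the log2 scale (SE 0.29, edgeR adjusted p = 0.00022).

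Nr4a3 (ENSMUSG00000028341, chr4:48045153-48086445, plus strand), also called Nor1, was the most abundant NR4A gene in both groups. It measured 87.6, 81.1 and 98.5 CPM in immature and 429, 417, 317 and 441 CPM in mature cells. The means were 89.0 ± 8.81 (SD, n = 3) and 401 ± 56.7 CPM (SD, n = 4), a 4.5-fold higher level in mature cells. The log2 fold change was 2.17 (SE 0.14, edgeR adjusted p = 4.1e-06), from 4510 to 6356 counts in immature and 16775 to 28288 counts in mature libraries.

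**Figure D1:**
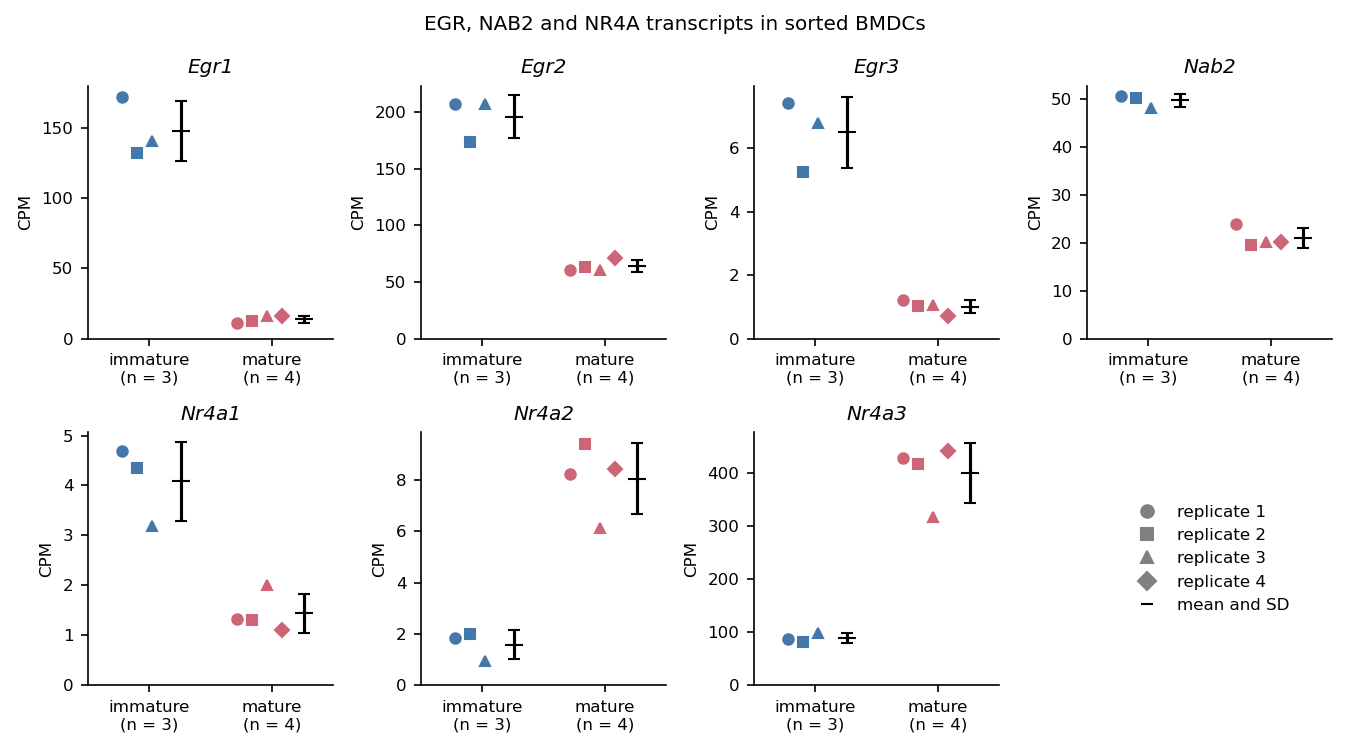
Level of each of the 7 genes in CPM (counts scaled to library size, linear axis from 0) in 3 immature and 4 mature libraries, with points for libraries and bars for the mean and SD. For every gene the groups do not overlap, with Nr4a2 and Nr4a3 higher and the other 5 genes lower in mature cells.

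Within mature cells, replicate 3 differed from the other libraries in a way that went with transcript length over all genes. Its genes with transcripts under 3000 bases had a median log2 difference of 0.28 from the mean of the other mature libraries, and those of 5000 bases or more a median of -0.41. Nr4a3 (5720 bases) was lower there by 0.44 on the log2 scale, and Nr4a1 (2553 bases) was higher by 0.67. Nr4a2 was lower by 0.50, although its 3568 bases are of intermediate length. The other short transcripts, Nab2 (2582 bases) and Egr2 (2965 bases), differed by -0.06 and -0.11 and so did not follow the short genes. Egr1 and Egr3, also of intermediate length (4484 and 3940 bases), differed by 0.30 and 0.14. The part of this library in the results is measured by leaving it out: without it the log2 fold changes were 2.29 for Nr4a3, 2.49 for Nr4a2 and -1.68 for Nr4a1. With mature replicate 1 as the only mature library, whose heart muscle markers were low, the spread came from the immature libraries alone and the single library is assumed to vary like them. The values were then -3.69 for Egr1, -1.67 for Egr2, -2.39 for Egr3, -1.03 for Nab2, -1.59 for Nr4a1, 2.41 for Nr4a2 and 2.29 for Nr4a3.

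**Figure D2:**
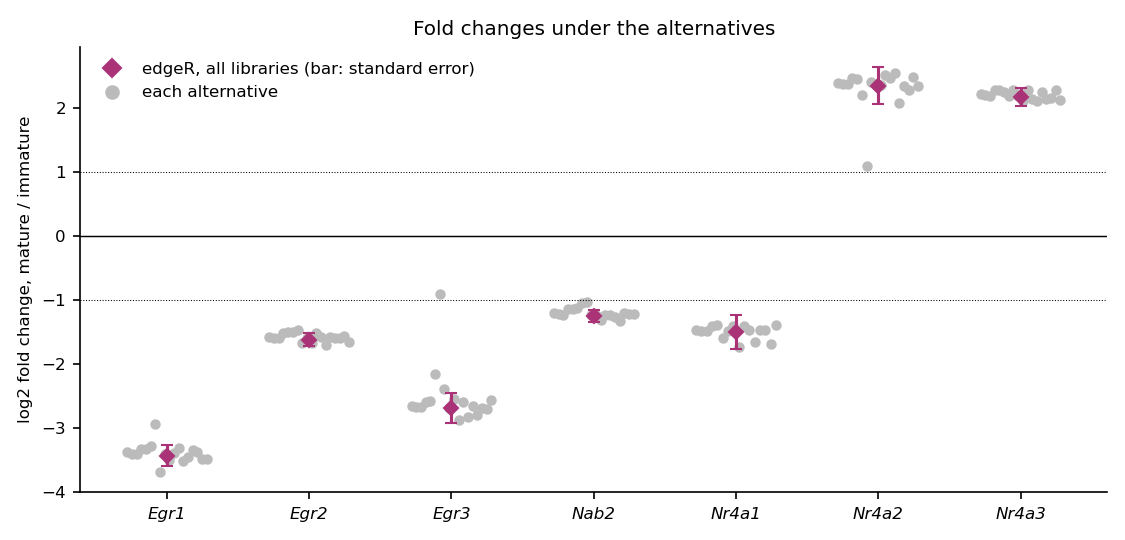
Log2 fold change (mature over immature) of each gene in the edgeR fit on all libraries (diamond, with its standard error) and under each alternative (grey points), with dotted lines at a log2 fold change of 1 and -1. No point changes sign, and Egr3 crosses the dotted line at -0.91 in the fit of log2(FPKM + 1).

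To compare the genes with each other, levels were put per length, as TPM (each gene's share of the length-scaled FPKM of its library). In immature cells Egr2 led with a mean of 153 TPM, followed by Egr1 at 87.8 TPM, and Nab2 and Nr4a3 stood at 44.9 and 39.4 TPM. The ranges of Nab2 (42.8 to 46.3 TPM) and Nr4a3 (36.2 to 42.9 TPM) overlapped at one end, and those of Egr3 (3.17 to 4.51 TPM) and Nr4a1 (2.35 to 3.57 TPM) also overlapped. Nr4a2 was lowest at 1.02 TPM. In mature cells the order was led by Nr4a3 at 187 TPM, then Egr2 at 51.9, Nab2 at 19.7, Egr1 at 8.39, Nr4a2 at 5.52, Nr4a1 at 1.1 and Egr3 at 0.619 TPM, and the ranges of neighbours in this order did not overlap. Egr1 thus went from the second to the fourth place of the 7 and Nr4a3 from the fourth to the first. Against all genes tested, the mean of Nr4a3 was at percentile 81.8 of level in immature and 96.0 in mature cells, and that of Egr1 at 91.3 and 51.6.

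Each family can also be read as a sum and its shares. The EGR sum was 218 to 270 TPM in immature and 49.8 to 69.8 TPM in mature cells. Egr2 made up 60.3% to 64.8% of that sum in immature and 82.4% to 86.5% in mature cells, and Egr1 33.5% to 38.0% and 12.2% to 16.5%. The NR4A sum went the other way, from 40.8 to 45.9 TPM to 127 to 217 TPM, with Nr4a3 at 88.8% to 93.6% in immature and 96.2% to 96.9% in mature cells.

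**Figure D3:**
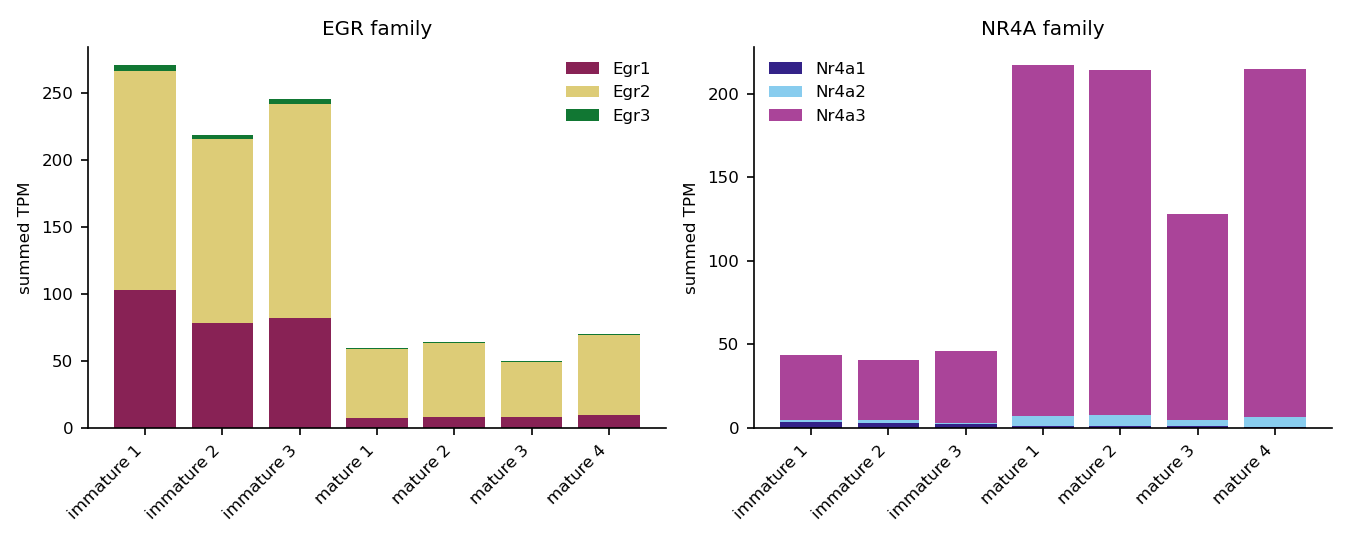
Stacked levels in TPM (length-scaled, linear axis from 0) of Egr1, Egr2 and Egr3 (left) and Nr4a1, Nr4a2 and Nr4a3 (right) in each library. The EGR sum is 218 to 270 TPM in the immature and 49.8 to 69.8 TPM in the mature libraries, and the NR4A sum 40.8 to 45.9 and 127 to 217 TPM.

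Ratios within a library hardly depend on how libraries are scaled. The log2 ratio of Egr2 to Egr1 was 0.80 ± 0.14 (SD, n = 3) in immature and 2.58 ± 0.22 (SD, n = 4) in mature cells, computed on FPKM plus 0.1. The ratio of Nab2 to Egr1 went from -0.95 to 1.19, and that of Egr3 to Egr1 from -4.39 to -3.26. The rise of 1.13 for Egr3 depends on the added 0.1, since Egr3 had 0.15 to 0.26 FPKM in mature cells: it was 0.71 with nothing added, and the groups then overlapped (-4.63 to -4.35 against -4.49 to -3.22, exact permutation p = 0.114). Relative to Egr1, both Egr2 and Nab2 stood higher in mature than in immature cells, with or without the added value. The ratios of Nr4a2 and Nr4a3 to Nr4a1 rose by 3.41 and 3.47 on the log2 scale, from means of -1.38 and 3.57 to 2.03 and 7.04. With 0.1 added, every mature library lay above every immature one for each of the 5 ratios, and with nothing added for 4 of them, all but Egr3 to Egr1. With 0.1 added, the two-sided exact permutation test gave p = 0.0571 for each, also after adjustment over the 5 ratios, which is the smallest value that 35 labelings of 3 against 4 libraries allow, so this test could not pass 0.05.

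Partners of these factors went both ways. Of 10 tested partners, 2 were higher and 2 lower (40.0%, against 23.1% of all genes tested). Their median log2 fold change was 0.05. Nab1, the paralogue of Nab2, had 33.8 ± 1.15 (SD, n = 3) and 34.8 ± 3.66 CPM (SD, n = 4), which differed by 0.04 on the log2 scale (SE 0.10, edgeR adjusted p = 0.761). Rxra, the retinoid X receptor that pairs with NR4A1 and NR4A2, stood at 76.0, 70.3 and 78.0 CPM in immature and at 19.2, 20.5, 19.2 and 22.9 CPM in mature cells. It fell by 1.87 on the log2 scale (SE 0.093, edgeR adjusted p = 1.1e-06). Chd3, a chromatin remodeller that binds NAB2, rose by 1.38 (SE 0.20, edgeR adjusted p = 0.0006), while Rcor1, a corepressor scaffold, fell by 1.06 (SE 0.19, edgeR adjusted p = 0.00167). Rxrg had no counts in the immature libraries or in mature replicate 1, and 1.28, 0.813 and 1.31 CPM in the other mature libraries. Its mean was at least 16.9-fold higher than 3 counts per immature library would give (edgeR adjusted p = 0.0213). Like the heart muscle markers, Rxrg was low in mature replicate 1 and higher in replicates 2 to 4, their part in it was not tested, and its call was also lost without any 1 immature library. Egr4 had 4 counts in 1 immature library, none elsewhere, and was not tested.

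The other immediate early genes went both ways too. Of 45 such genes, 8 were higher and 13 lower in mature cells (46.7%, against 23.1% of all genes tested). The other 24 did not pass both criteria, and the median log2 fold change was -0.28. The 3 clearest rises were Arc, which encodes a synaptic and capsid-like protein, Gadd45b, a stress and growth arrest gene, and Dusp5, a phosphatase of nuclear ERK. Arc stood at 13.5, 12.5 and 10.9 CPM in immature and at 104, 92.7, 94.2 and 92.0 CPM in mature cells, a rise of 2.96 on the log2 scale (SE 0.11, edgeR adjusted p = 3.3e-07). Gadd45b rose by 2.94 (SE 0.21, edgeR adjusted p = 7.7e-06) and Dusp5 by 1.84 (SE 0.093, edgeR adjusted p = 1.2e-06). These 3 genes moved in the direction of Nr4a2 and Nr4a3.

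The clearest falls were in the direction of Egr1. Dusp6, a phosphatase of cytoplasmic ERK that ERK signalling induces, stood at 74.5, 63.6 and 66.7 CPM in immature and at 9.34, 9.88, 8.87 and 11.3 CPM in mature cells. It fell by 2.79 on the log2 scale (SE 0.11, edgeR adjusted p = 4.9e-07). Myc, a growth regulator, fell by 2.37 (SE 0.15, edgeR adjusted p = 4e-06), and Zfp36l2, an RNA-binding protein that shortens the life of messages, by 2.28 (SE 0.084, edgeR adjusted p = 3.8e-07). Dusp5 and Dusp6 moved in opposite directions although both products act on ERK. These 6 genes are those with the largest test statistic among the list.

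Fos, a partner in the AP-1 dimer, fell by 3.02 (SE 0.35, edgeR adjusted p = 0.00016) but varied among replicates. It measured 404, 233 and 188 CPM in immature and 25.8, 28.6, 55.8 and 25.2 CPM in mature libraries. Fosb had 146, 71.3 and 35.4 CPM in immature and 11.0, 15.2, 30.2 and 8.38 CPM in mature libraries, a log2 fold change of -2.38 (SE 0.54, edgeR adjusted p = 0.00636). Immature replicate 1 was highest of its group and mature replicate 3 of its own for both. This pattern also held for other genes of the list, among them Klf2, Ier2 and Rgs2, but not for Dusp6 or Myc. Among the members it held for Nr4a1 and Egr1, although Egr1 was close in mature replicates 3 and 4, at 15.9 and 15.8 CPM. Unlike Fos and Fosb, Jun, Junb and Atf3 had log2 fold changes of -0.33, 0.02 and -0.08. These genes did not pass the test (edgeR adjusted p = 0.364, 0.959 and 0.725). Ccn1 and Ccn2 were also called higher, but in mature replicate 1 they lay within the immature range, at 0.606 and 0.333 CPM.

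**Figure D4:**
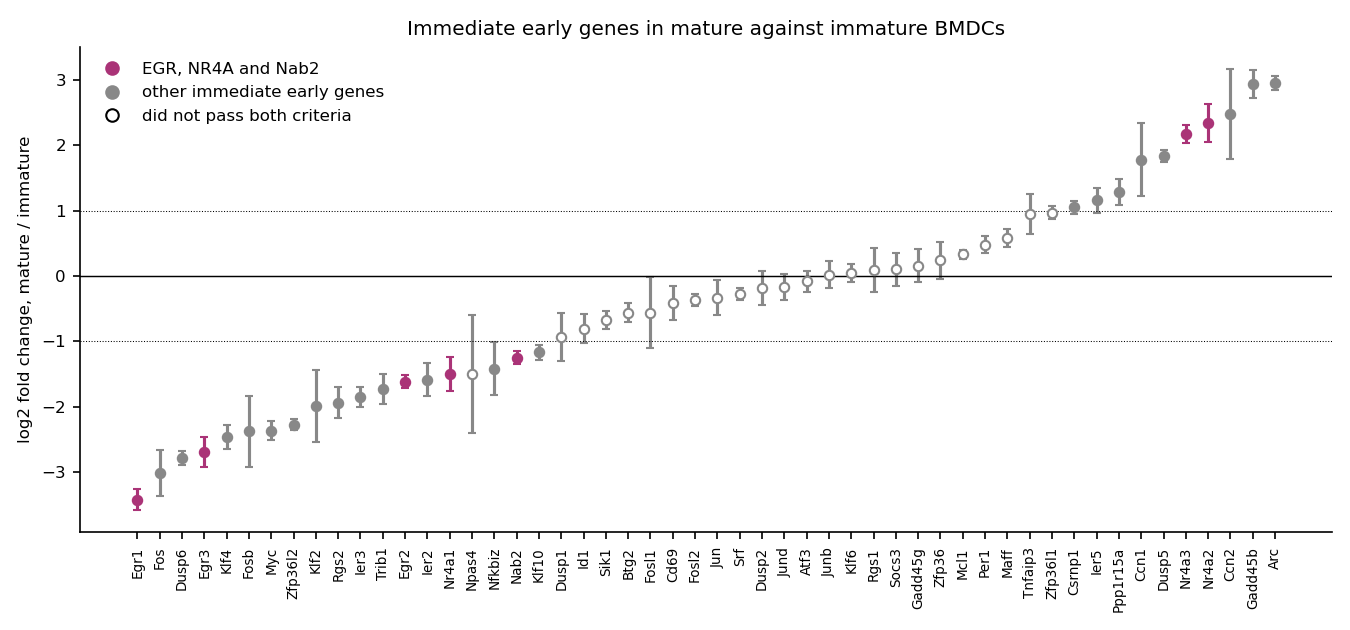
Log2 fold change (mature over immature) with its standard error for the 7 genes (purple) and the 45 other immediate early genes (grey), ordered by value. Filled points passed both criteria and open points did not, and dotted lines mark a log2 fold change of 1 and -1. The list spreads from -3.43 (Egr1) to 2.96 (Arc), and Nr4a2 and Nr4a3 lie among the 5 highest values.

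Genes that carry signals to these factors, such as kinases and the factors bound at their promoters, were a further list. Of 36 genes, 4 were higher and 3 lower (19.4%, against 23.1% of all genes tested), and the median log2 fold change was -0.11. Crem, a cAMP-responsive modulator that binds the same elements as CREB, rose by 2.35 (SE 0.11, edgeR adjusted p = 8.3e-07), with 13.8, 15.9 and 15.5 CPM in immature and 74.9, 72.1, 87.9 and 72.4 CPM in mature cells. The CREB coactivator Crtc2 rose by 1.02, the serum response factor coactivator Mrtfa by 1.26 and the kinase gene Rps6ka5, whose product phosphorylates CREB, by 1.23. Hdac4, a repressor held by MEF2, fell by 1.86 (SE 0.20, edgeR adjusted p = 8.2e-05), and Mef2a and Mef2c fell by 1.06 and 1.33. The kinase gene Mapk3, which encodes a form of ERK, had a log2 fold change of 0.30 (edgeR adjusted p = 0.0894). Creb1 had 0.31 and Srf -0.28 (edgeR adjusted p = 0.0515 and 0.0342), below the criterion on fold.

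Reported EGR targets went both ways. Of 21 tested genes, 4 were higher and 2 lower (28.6%, against 23.1% of all genes tested), with a median log2 fold change of 0.10. Plaur, the urokinase receptor, fell from 390, 408 and 407 CPM in immature to 46.5, 59.2, 73.6 and 67.0 CPM in mature libraries, a log2 fold change of -2.71 (SE 0.15, edgeR adjusted p = 1.7e-06). Fn1, the matrix protein fibronectin, fell by 3.62 (SE 0.22, edgeR adjusted p = 3.6e-06). Icam1, an adhesion molecule, rose from 145, 140 and 149 CPM to 491, 500, 482 and 496 CPM, a log2 fold change of 1.76 (SE 0.072, edgeR adjusted p = 4.9e-07). Cblb, a ubiquitin ligase linked to T cell anergy, rose by 2.28, Pdgfb, a growth factor chain, by 1.68 and Cdk5r1, an activator of CDK5, by 1.98 (edgeR adjusted p = 6.5e-06, 3.5e-06 and 0.00035).

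Of 7 tested genes reported as NR4A targets, 3 were higher and 1 lower (57.1%, against 23.1% of all genes tested). Eno3, muscle enolase, rose by 2.27 (SE 0.17, edgeR adjusted p = 9.1e-06), and Star, a cholesterol carrier of steroidogenesis, by 1.1 (SE 0.26, edgeR adjusted p = 0.00829). Fbp2 had no counts in the immature libraries or in mature replicate 1, and 0.771, 0.889 and 1.04 CPM in the other mature libraries, at least 13.4-fold above 3 counts per immature library (edgeR adjusted p = 0.0222). Fbp2 is expressed in muscle, and the heart muscle markers, at 26.9 CPM in mature replicate 1 and 718 to 849 CPM in the others, moved with it. Its call was lost when any 1 immature library was left out, and the part of the heart muscle RNA in it was not tested. Spp1, osteopontin, fell by 1.81 (SE 0.13, edgeR adjusted p = 7.1e-06). Irf4, a dendritic cell regulator, was at 207 ± 11.2 (SD, n = 3) and 410 ± 43.3 CPM (SD, n = 4), which differed by 0.99 on the log2 scale (SE 0.10, edgeR adjusted p = 7.8e-05), just under the criterion on fold.

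The genes whose pattern was most like each member were found over 17460 other tested genes, as the smallest root mean square difference of centred log2 CPM over the 7 libraries. For Egr1 these were Cd5l, Arg1 and Ms4a8a (0.15, 0.15 and 0.17), for Egr2 Pfkfb4, Itgal and Sh2d3c (0.066, 0.068 and 0.072), and for Egr3 Cd28, E2f2 and Nqo2 (0.11, 0.17 and 0.17). For Nab2 they were Fam78a, Dgkz and Plekho2 (0.067, 0.071 and 0.073), and for Nr4a1 they included Gm15590 and Emp1 (0.13 and 0.16). For Nr4a2 they were Reck, Gm27861 and Myrip (0.18, 0.22 and 0.24), and for Nr4a3 P2ry10, D630039A03Rik and Adgrf5 (0.071, 0.091 and 0.097). The likeness rests on the shared contrast of the groups and on the same 7 libraries, and no member was among the nearest genes of another.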

How the data were processed

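Poly(A) RNA of 3 immature and 4 mature BMDC samples was sequenced in pairs from a dUTP-stranded library. The authors deposited whole-number counts and FPKM values, which divide fragments by length and library size, per gene and library. The submitters' processing notes name cutadapt 1.9, HISAT2 2.2.1, StringTie 2.1.6, DESeq2 and edgeR, and the build mm9. The coordinates in the table are nevertheless those of GENCODE M21 on GRCm38 for 24940 of the 28588 genes shared with it, and GRCm38 is used here.

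The counts were tested in R 4.3.3 with edgeR 4.0.16 (filter on low counts, TMM, quasi-likelihood test, Benjamini-Hochberg adjustment). A standard error is the size of the log2 fold change divided by the square root of F. TPM were FPKM divided by their sum in a library. Floors of 3 counts cover counting error only. Groups follow the sample labels.

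The members and gene lists were chosen with earlier results of these data known, and the lists support nothing on their own. From each list, up to 6 genes past both criteria with the largest F are named, with all genes of a count of 5 or fewer. Others, such as Fos and Irf4, were named after their values were seen, and some genes of the lists and comparisons are not reported here. Alternatives were DESeq2 1.42.0, limma 3.58.1 on log2(FPKM + 0.1) and log2(FPKM + 1), other scalings and filters, omission of libraries and a replicate block. The tests were checked on simulated counts with 200 genes changed 4-fold. edgeR recovered 153 of them with 5 false calls, DESeq2 163 with 36 and limma 124 with 6. The median fitted log2 values were 2.019 and -1.991 in edgeR, and 1.765 and -1.595 in limma.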

Additional observations from a re-analysis of the deposited data

Results flagged for a closer look

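Among 86 values tested in the mature libraries for 1 library far from the others, 11 stood out, where 1 in 20 would be 4.3. The 86 values come from the same 4 libraries and are not independent, so the 4.3 gives no measure of chance. All 11 were in mature replicate 3, and none was one of the 7 genes. The gap to the nearest library, as a share of the range of the group, was 0.889 for Fos, 0.853 for Ier2, 0.889 for Klf2, 0.935 for Ier5, 0.914 for Ppp1r15a and 0.875 for Rgs2 among immediate early genes. It was 0.846 for Relb, 0.928 for Cd40 and 0.88 for Ccr7 among maturation markers, 0.832 for Zbtb46 and 0.8293 for C1qc. Zbtb46 was lowest in that library and the other 10 genes were highest. The part of transcript length in these values was not tested.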

How the results depend on the processing

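All 7 genes kept their direction under every alternative run, with Nr4a2 lowest at 1.1 in limma on log2(FPKM + 1). They also stayed past both criteria, except Egr3 in that fit, at -0.91, and Nr4a1 was not tested in either limma fit because it fell under the FPKM filter. The 5 ratios kept their direction in all 55 alternatives, of which the 10 with nothing added were chosen after seeing the data, as were scaling by library totals and the omission of mature replicates 1 and 3 together. Over all genes, 4037 passed both criteria, 2561 with limma on log2(FPKM + 0.1), 1768 with log2(FPKM + 1) and 8053 without the criterion on fold. Without that criterion the lists gave 86 calls in place of 50, the input genes 22 in place of 7 and the EGR targets 15 in place of 6. The input genes gave 4 with log2(FPKM + 1). The 4 partners called became 2 in both limma fits and with mature replicate 1 alone, where that library is assumed to vary like the immature ones. Leaving out 1 library at a time gave 3646 to 4052 calls over all genes, 47 to 49 in the lists and 2 to 4 among the partners, with 2 without immature replicate 1 or mature replicate 3. Scaling by library totals or upper quartiles shifted the median log2 fold change by 0.11, and 63.1% and 63.3% of calls were then higher, against 57.0%. Rxrg and Fbp2 lost their call without any 1 of the immature libraries, and Klf2 without immature replicate 1 (edgeR adjusted p = 0.0668), each with fewer samples. Of 1382 values of other named genes under alternatives, 62 lost their call and none changed sign, most often Rcor1 (8), Mef2a (7), Hspb1 (7), Ccn1 (6) and Nfkbiz (6). Replicate numbers are shared by the groups, but no source says whether same-numbered samples are paired. Same-number correlations of the deviations from the group means were 0.0285, -0.00114 and 0.0144. With so few libraries they cannot decide whether samples were paired. With the replicate block 3616 genes and all 7 members were called, and Ccn1, Ccn2 and Nfkbiz were not. Other causes were not tested.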

Other observations

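Of 11 genes of non-classical and classical monocytes, the first of which need Nr4a1, 8 were lower and 1 was higher in mature cells. These calls were 81.8% of the list, against 23.1% of all genes tested, and the median log2 fold change was -1.57. Ccr2, the receptor that draws monocytes from the marrow, fell by 3.40, and Cd36, a scavenger receptor, by 2.08. Itgal fell by 1.57, Fcgr4 by 2.18, Spn by 1.49 and Cebpb by 2.1, while Treml4 rose by 1.35. Cx3cr1 and Ly6c2 did not pass the test, with log2 fold changes of -1.21 and -0.21. The monocyte genes moved with the macrophage markers, and their relation to Nr4a1 was not tested.

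Genes of the heat shock response gave 1 call among 12 (8.33%, against 23.1% of all genes tested). It was Hspb1, with a log2 fold change of 1.46 (SE 0.51, edgeR adjusted p = 0.0437) and overlapping groups. Mature replicate 1, at 0.894 CPM, lay within its immature range of 0.324 to 1.15 CPM. Mature replicates 2, 3 and 4 had 2.46, 2.19 and 1.89 CPM of Hspb1, and the part of the heart muscle RNA in it was not tested. Hspa1a measured 10.9, 5.57 and 3.07 CPM in immature and 2.2, 4.07, 3.61 and 1.89 CPM in mature libraries, a log2 fold change of -1.14 (SE 0.43, edgeR adjusted p = 0.0587). Like Fos, it was highest in immature replicate 1. Among markers of other cells, Kit was higher (log2 fold change 2.76) within 5 mast cell and basophil markers. Of the red cell genes, 4 of 4 tested were higher at a sum of at most 4.03 CPM. Epcam was higher (2.24) within 6 epithelial markers, at no more than 1.6 CPM in any library. The 5 tested epithelial markers had a median of -0.53. The epithelial sum was 70.0 to 77.4 CPM in immature and 59.2 to 69.7 CPM in mature libraries.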
